A study of Homo sapiens with 12 samples.

Results

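The 10 genes described here encode the subunits of the hypoxia-inducible factors (HIFs) and the proteins that read oxygen for them. They are the prolyl hydroxylases EGLN1, EGLN2 and EGLN3, the asparaginyl hydroxylase HIF1AN, the ubiquitin ligase subunit VHL, the α subunits HIF1A, EPAS1 and HIF3A, and the β subunits ARNT and ARNT2. They were chosen by symbol, each had 1 transcript cluster (the probes that the array combines into a single value for a gene), and they make up 10 of the 17958 genes tested. The study asked what the estrogen receptor isoform ERβ2 regulates in BT549, a triple-negative breast cancer cell line, and proposed a link from ERβ2 to PHD3, the protein of EGLN3, and HIF-1α. It measured RNA on 12 Affymetrix Human Gene 1.1 ST arrays in 4 groups of 3 biological replicates. BT549 cells were transfected with ERβ2 siRNA or control siRNA and taken after 48 h, or with a pcDNA3 plasmid that carries FLAG-tagged ERβ2 cDNA (ERβ2 plasmid) or the empty vector (EV) and taken after 24 h. All groups share the cell line, the medium and a transfection, no hypoxic treatment is named, and the plasmid is transient. Each array read RNA from a whole culture, so a change in every cell and a change in some of the cells cannot be told apart.

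When oxygen is present, the EGLN enzymes hydroxylate prolines of the HIF-α proteins, and VHL then marks these for destruction by the proteasome. HIF1AN hydroxylates an asparagine in their activation domain and so blocks the binding of coactivators. When oxygen is scarce, the α subunits persist, pair with ARNT or ARNT2 and turn on genes of glycolysis, angiogenesis and matrix remodelling, and EGLN3 and EGLN1 are themselves among the genes that HIF induces. This control acts on the protein, which arrays do not read.

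The deposited values are RMA log2 values, which ran from 2.02 to 13.46, with array medians of 5.04 to 5.14. Arrays of 1 group correlated at 0.9969 to 0.9988 over all genes. ESR2, the gene of all ERβ isoforms, had log2 values of 4.12, 3.99 and 3.80 with ERβ2 siRNA, against 4.03, 3.88 and 4.05 with control siRNA. The targeted gene thus did not fall on these arrays (log2 change −0.02, 95% CI −0.22 to 0.19) and gave no check of the label ERβ2 siRNA. Its signal exceeded that of only 23.2% of genes, where RMA values can compress a change. By qPCR the paper reported lower ERβ2 mRNA in BT549 after ERβ2 siRNA. With the ERβ2 plasmid ESR2 had 4.35, 4.72 and 4.37, against 4.08, 3.93 and 4.01 with EV (log2 change 0.47, limma adjusted p = 0.449). By Western blot the paper reported more ERβ2 protein after transfection of the ERβ2 plasmid. The signals of VIM, ZEB1, FN1, CDH2 and SPARC, mesenchymal genes of this line, lay above those of 81.6% to 99.6% of genes, and those of ESR1, PGR, CDH1 and EPCAM, expected to be low, above 10.1% to 20.2%. KRT19, an epithelial keratin expected to be low as well, ranked above 39.9%, with group means of 4.75 to 5.92. Another 5 genes were set as markers of other cells that a culture could hold (fibroblast, blood or endothelial). Of these PTPRC, PECAM1, VWF and CDH5 ranked above 9.52% to 19.5% of genes and CD68 above 95.4%. The source of the CD68 signal was not tested.

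With ERβ2 siRNA, EGLN3, EPAS1 and EGLN1 were higher and HIF1AN and ARNT2 were lower than with control siRNA, and EGLN2, HIF1A, HIF3A, ARNT and VHL did not pass the test. Passing meant an adjusted p no higher than 0.1 from limma, with the Benjamini-Hochberg adjustment made over all genes. Thus 5 of 10 members passed, 3 of them higher, where 35.8% of all genes passed, 18.3% higher and 17.5% lower. A gene was called changed if its fold was also at least 1.5, which EGLN3 and EPAS1 reached, against 3.25% of genes called higher and 1.26% called lower. The arrays of both groups did not overlap for 6 members, against 42.4% of genes.

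EGLN3 encodes PHD3, the prolyl hydroxylase whose mRNA is known to respond most strongly to hypoxia in many cells. Its log2 value was 6.74, 6.75 and 6.70 with ERβ2 siRNA, against 5.93, 5.88 and 6.21 with control siRNA. All 3 ERβ2 siRNA arrays lay above all 3 controls, and control replicate 3 was the highest of the controls. The log2 change was 0.72 (standard error, SE, 0.09, 95% confidence interval, CI, 0.52 to 0.92), which is 1.65-fold, with a limma adjusted p of 0.000522. It was 0.83 without control siRNA replicate 3. Of all genes 2.56% changed by more, up or down. The study picked this gene out of these same arrays, so its change here is no independent evidence. Apart from the arrays, the paper reported higher PHD3 mRNA by qPCR and higher protein by Western blot after ERβ2 siRNA in BT549. It also reported changed PHD3 mRNA in MDA-MB-231 cells.

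EGLN1 encodes PHD2, the main oxygen sensor of HIF-1α under normal oxygen. Its log2 value was 10.18, 10.16 and 10.18 with ERβ2 siRNA, against 9.87, 9.93 and 9.88 with control siRNA. The groups were apart, and the arrays within each hardly differed, with standard deviations of 0.01 for ERβ2 siRNA and 0.03 for control siRNA. The log2 change of 0.28 (SE 0.05, 95% CI 0.16 to 0.40) was 1.21-fold, and 20.4% of genes changed by more. EGLN2 encodes PHD1, the third prolyl hydroxylase. It had log2 values of 7.26, 7.30 and 7.32 with ERβ2 siRNA, against 7.20, 7.10 and 7.18 with control siRNA. These arrays did not overlap either, but its log2 change of 0.13 (95% CI 0.01 to 0.26) did not pass (limma adjusted p = 0.112). It passed in other settings, at 0.0996 without control siRNA replicate 1 and at 0.0711 in 1 fit for all 4 groups.

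HIF1AN encodes FIH, which blocks the activation domain rather than the stability of HIF-α. Its log2 value was 7.67, 7.62 and 7.55 with ERβ2 siRNA, against 7.75, 7.79 and 7.89 with control siRNA. The log2 change of −0.20 (SE 0.06, 95% CI −0.34 to −0.05) was opposite in sign to those of the 3 EGLN genes. It passed with a limma adjusted p of 0.0478, but not without control siRNA replicate 3 (0.145) or without ERβ2 siRNA replicate 3 (0.160). VHL had log2 values of 10.09, 9.96 and 9.94 with ERβ2 siRNA, against 10.05, 9.95 and 9.83 with control siRNA. Its groups overlapped, and the log2 change of 0.05 had a 95% CI from −0.12 to 0.22.

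Among the α subunits EPAS1, which encodes HIF-2α, changed the most. Its log2 value was 11.46, 11.56 and 11.50 with ERβ2 siRNA, against 10.84, 10.88 and 10.92 with control siRNA. The gap between the lowest ERβ2 siRNA array and the highest control array was several times the spread within either group. The log2 change was 0.63 (SE 0.06, 95% CI 0.50 to 0.76, 1.54-fold), with a limma adjusted p of 0.000113. That fold is just over the 1.5-fold cut-off, and with each array centred on its median the log2 change was 0.54, under it.

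HIF1A, which encodes HIF-1α, had log2 values of 11.75, 11.90 and 11.92 with ERβ2 siRNA, against 11.65, 11.76 and 11.67 with control siRNA. The lowest ERβ2 siRNA array lay within the control range. The log2 change of 0.16 (95% CI 0.01 to 0.32) did not pass (limma adjusted p = 0.104). It passed in other settings, at 0.0113 with an intensity trend and 0.0541 without ERβ2 siRNA replicate 1. By Western blot and ELISA the paper reported less HIF-1α protein after ERβ2 siRNA in BT549 and more after ERβ2 overexpression. By qPCR it reported small changes of HIF-1α mRNA. HIF3A, whose splice forms include inhibitors of the other α subunits, had log2 values between 4.21 and 4.31 with ERβ2 siRNA, against 4.09 to 4.29 with control siRNA. Its signal exceeded that of 25.4% of genes, which ranks probe signals and says nothing of how much transcript there was. RMA values can compress a change at such a signal, and its log2 change of 0.04 had a 95% CI from −0.12 to 0.19.

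Of the β subunits ARNT2 passed and ARNT did not. ARNT, the general partner of the α subunits, had log2 values of 9.84, 9.71 and 9.78 with ERβ2 siRNA, against 9.79, 9.69 and 9.71 with control siRNA (log2 change 0.05, limma adjusted p = 0.605). ARNT2, a partner best known from neurons, had 4.56, 4.71 and 4.63, against 4.83, 4.79 and 4.87 with control siRNA. Its log2 change of −0.20 (SE 0.06, 95% CI −0.33 to −0.06) passed with a limma adjusted p of 0.0422, at a signal above that of 33.5% of genes. It did not pass without control siRNA replicate 3 (0.121), without ERβ2 siRNA replicate 1 (0.127) or 3 (0.112), after another quantile normalization (0.146), in 1 fit for all 4 groups (0.129) or with an intensity trend (0.118).

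**Figure D1:**
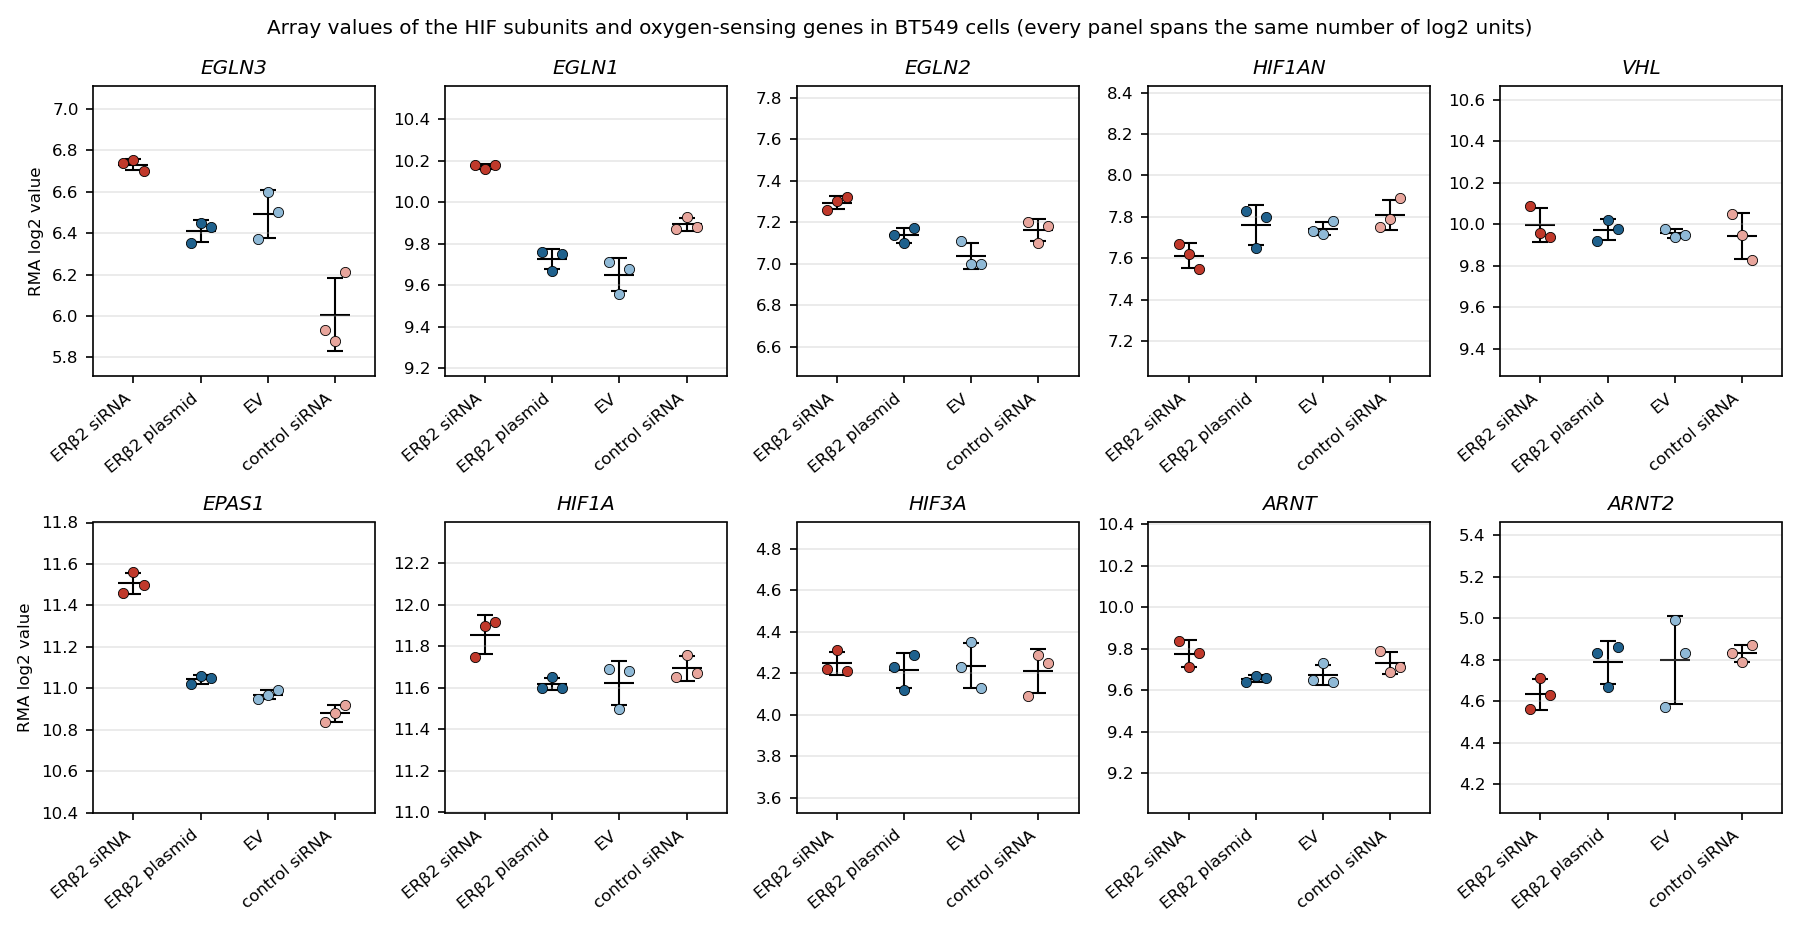
RMA log2 value (vertical axis, every panel spanning the same range of log2 units) of each of the 10 genes on each array, for ERβ2 siRNA, ERβ2 plasmid, EV and control siRNA, with 3 arrays per group as points and the mean ± SD as bars. EGLN3 and EPAS1 stand highest with ERβ2 siRNA, at means of 6.73 and 11.51, EGLN1 falls into 3 levels, and VHL, HIF3A and ARNT stay near 1 level.

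Promoter sequence is shown for the 3 prolyl hydroxylase genes and EPAS1, because these 4 were the members whose ERβ2 siRNA arrays all lay above the controls. Each line is the RefSeq window in GRCh38.p14 from 250 bases before to 50 bases after the annotated gene start, 5′ to 3′ on the strand of the gene. The windows are chr14:33951025-33951324 on the minus strand for EGLN3, chr2:46297157-46297456 on the plus strand for EPAS1, chr1:231422238-231422537 on the minus strand for EGLN1, and chr19:40798941-40799240 on the plus strand for EGLN2, the first of 2 windows of that gene. They hold the promoter and the first bases of the transcript. Capitals mark the core of the HIF binding motif, searched as ACGTG or GCGTG on both strands.
EGLN3: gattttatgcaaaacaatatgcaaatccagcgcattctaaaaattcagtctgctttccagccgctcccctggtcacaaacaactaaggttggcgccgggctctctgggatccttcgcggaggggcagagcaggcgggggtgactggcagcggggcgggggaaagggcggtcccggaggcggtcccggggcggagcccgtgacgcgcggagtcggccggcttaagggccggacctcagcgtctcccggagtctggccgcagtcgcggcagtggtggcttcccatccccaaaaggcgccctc
EPAS1: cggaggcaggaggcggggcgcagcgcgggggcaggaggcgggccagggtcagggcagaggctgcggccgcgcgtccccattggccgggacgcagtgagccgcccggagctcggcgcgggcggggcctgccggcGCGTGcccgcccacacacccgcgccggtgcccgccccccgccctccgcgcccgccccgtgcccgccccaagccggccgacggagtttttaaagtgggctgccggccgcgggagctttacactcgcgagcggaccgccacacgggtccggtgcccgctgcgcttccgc
EGLN1: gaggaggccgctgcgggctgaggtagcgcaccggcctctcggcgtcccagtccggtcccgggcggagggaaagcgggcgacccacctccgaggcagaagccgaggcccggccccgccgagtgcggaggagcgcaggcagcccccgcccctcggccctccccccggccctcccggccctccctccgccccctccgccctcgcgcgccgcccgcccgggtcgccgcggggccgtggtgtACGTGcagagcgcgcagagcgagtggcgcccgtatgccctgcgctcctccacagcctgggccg
EGLN2: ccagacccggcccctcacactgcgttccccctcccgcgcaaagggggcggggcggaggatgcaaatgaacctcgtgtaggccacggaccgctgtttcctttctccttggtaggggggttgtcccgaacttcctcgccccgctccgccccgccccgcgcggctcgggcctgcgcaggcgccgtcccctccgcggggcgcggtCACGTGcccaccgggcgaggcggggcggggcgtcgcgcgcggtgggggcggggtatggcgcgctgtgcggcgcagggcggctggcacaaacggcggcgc

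The EGLN1 window held ACGTG at position −13 before the start. The EGLN2 window held ACGTG at position −48 on the strand of the gene and again on the other strand at −49, and these overlap in 1 palindrome. EPAS1 held GCGTG at −117, and the EGLN3 window held neither form. So the member with the largest change was without these letters in its window, and each of the other 3 had them in the window shown. A relation of the motif to the changes was not tested. A window was given for 8 members, and 5 of these held the motif in at least 1 window, HIF1A and HIF3A being the others, while ARNT and HIF1AN held none. EGLN2 and HIF1A had 2 windows each and HIF3A had 3, and only the first window of each held it. Of all 35116 promoter windows 48.4% held the motif, and 21.4% held ACGTG, so a match is common. These shares are per window and cannot be set beside the count per gene. ARNT2 and VHL had no window.

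With the ERβ2 plasmid 0 of 10 members passed against EV, where 0.0111% of genes did, 2 in all (4 higher and 2 lower without EV replicate 2, and 0 without any other array). Of the members 0 had an unadjusted p under 0.05 from limma, against 7.02% of genes, and 0 passed the methods' t-test after Benjamini-Hochberg adjustment. EGLN3 had log2 values of 6.35, 6.45 and 6.43 with the ERβ2 plasmid, against 6.37, 6.60 and 6.50 with EV. The groups overlapped, and the log2 change was −0.08 (95% CI −0.24 to 0.08). The interval leaves out a fall as large as the rise seen with ERβ2 siRNA. The paper reported less PHD3 mRNA by qPCR and less PHD3 protein by immunofluorescence after ERβ2 overexpression in BT549. Why EGLN3 did not pass as lower on these arrays was not tested. EPAS1 had 11.02, 11.06 and 11.05 with the ERβ2 plasmid, against 10.95, 10.97 and 10.99 with EV, and was the single member whose arrays did not overlap, against 12% of genes. Its log2 change of 0.07 (95% CI −0.04 to 0.19) did not pass (limma adjusted p = 0.818). HIF1A had 11.60, 11.65 and 11.60 with the ERβ2 plasmid, against 11.69, 11.50 and 11.68 with EV, a log2 change of −0.01 (95% CI −0.16 to 0.15). The other members had log2 changes between −0.02 for HIF3A and ARNT and 0.10 for EGLN2.

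The effect of ERβ2 siRNA minus the effect of the ERβ2 plasmid was tested in 1 limma fit over the 12 arrays. It was 0.80 for EGLN3 on the log2 scale (SE 0.12, 95% CI 0.55 to 1.06, adjusted p = 0.000424). For EPAS1 it was 0.55 (SE 0.07, 95% CI 0.41 to 0.70, adjusted p = 0.000102). Both effects thus differed for these genes by far more than the spread between arrays. For EGLN1 it was 0.20 (SE 0.07, 95% CI 0.04 to 0.36, adjusted p = 0.076), a result that was lost in 14 other settings, among them when leaving out any ERβ2 siRNA array, control siRNA replicate 1 or 3, EV replicate 1 or 3 or ERβ2 plasmid replicate 2 or 3 (adjusted p 0.103 to 0.155). The other 7 members did not pass. HIF1AN was next with −0.21 (adjusted p = 0.108) and passed without control siRNA replicate 1 (0.0843) or ERβ2 plasmid replicate 2 (0.0464), and HIF1A passed without EV replicate 2 (0.0796). Of all genes 26.4% passed, 15% higher. A different time after transfection, another reagent and another kind of nucleic acid also separate both effects and cannot be told apart from them.

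**Figure D2:**
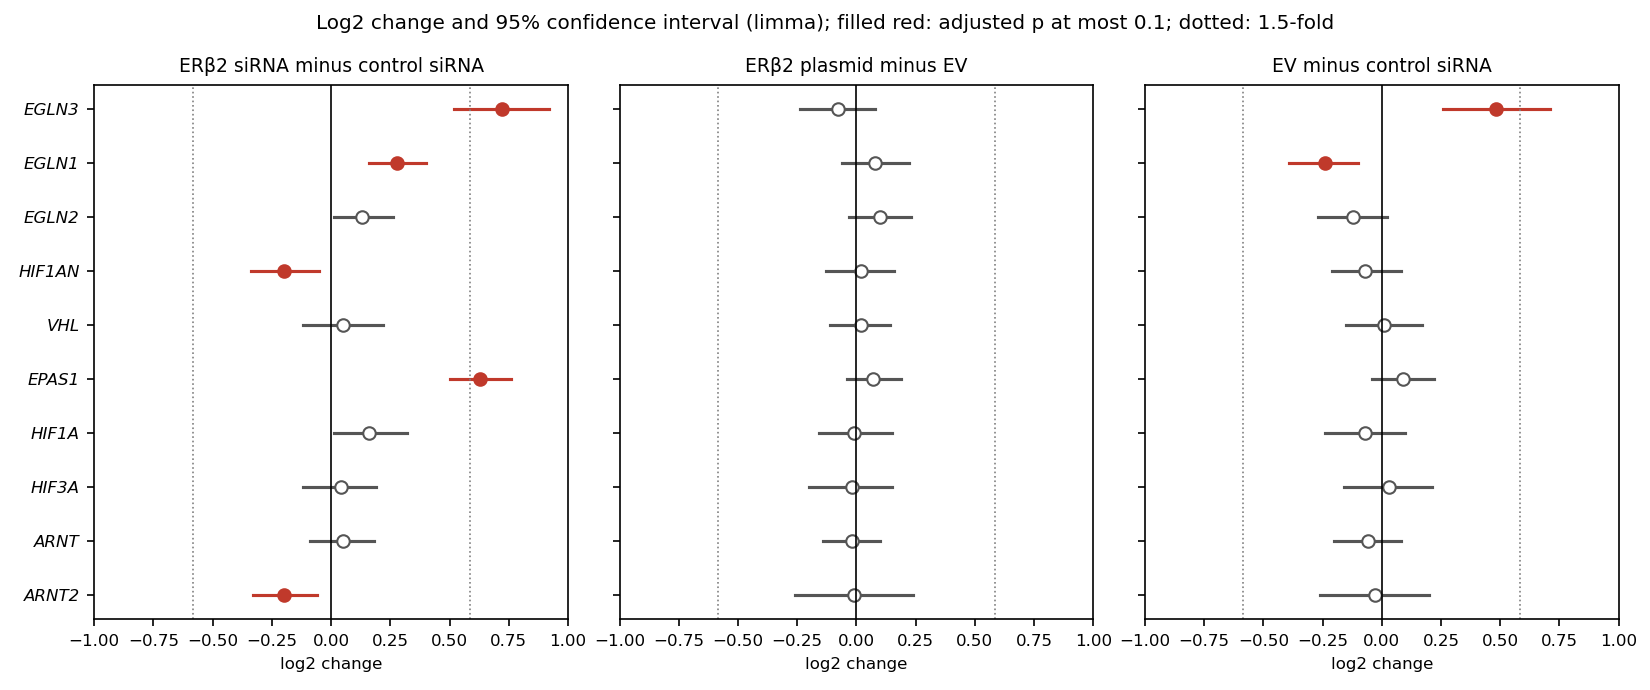
Log2 change (horizontal axis) with its 95% confidence interval for each of the 10 genes (rows) in 3 comparisons of 3 arrays against 3, with filled red points where limma gave an adjusted p no higher than 0.1 and dotted lines at 1.5-fold. With ERβ2 siRNA 5 genes passed, with the ERβ2 plasmid every interval crosses 0, and between EV and control siRNA EGLN3 (0.48) and EGLN1 (−0.24) passed in opposite directions.

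Both control groups differed in EGLN3 and EGLN1. EGLN3 had log2 values of 6.37, 6.60 and 6.50 with EV, against 5.93, 5.88 and 6.21 with control siRNA. The log2 change of 0.48 (SE 0.10, 95% CI 0.26 to 0.71, 1.40-fold) had a limma adjusted p of 0.00692. It was in the same direction as with ERβ2 siRNA, and these comparisons share the control siRNA arrays. EGLN1 went the other way, with 9.71, 9.56 and 9.68 in EV, against 9.87, 9.93 and 9.88 with control siRNA (log2 change −0.24, SE 0.06, limma adjusted p = 0.021). The other 8 members did not pass, where 41.6% of all genes passed, 19.2% higher and 22.4% lower.

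In the order of the group means EGLN3 was lowest with control siRNA, then the ERβ2 plasmid and EV, which overlapped, and highest with ERβ2 siRNA. EPAS1 had, from low to high, the order control siRNA, EV, ERβ2 plasmid, ERβ2 siRNA, and no neighbours overlapped. EGLN1 had EV and the ERβ2 plasmid at the bottom with overlapping arrays, control siRNA above them and ERβ2 siRNA at the top. EGLN2 had that same order with only ERβ2 siRNA set apart. For VHL, HIF1A, HIF3A, ARNT and ARNT2 all neighbouring groups overlapped, and for HIF1AN all but ERβ2 siRNA, the lowest. The group means spanned 0.72 log2 units for EGLN3, 0.63 for EPAS1, 0.52 for EGLN1 and 0.04 for HIF3A.

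A pair of gene lists moved with these groups. Like the other lists here, both were chosen with earlier results of these data known, so their movement is a description and no test. Of 11 interferon-stimulated genes 11 were higher with EV than with control siRNA, where 19.2% of all genes were higher. The mean log2 value of the 11 genes per array was 10.99 to 11.08 with EV, against 5.71 to 5.77 with control siRNA. With ERβ2 siRNA that mean was 5.52 to 5.78, which overlaps control siRNA. Where 18.3% of all genes were higher and 17.5% lower, 1 interferon-stimulated gene passed higher and 2 lower. The lower ones were 4 without control siRNA replicate 3, 6 after median centring and 1 without replicate 2 of either arm, and 2 were higher without ERβ2 siRNA replicate 2. Where 17.5% of all genes were lower with ERβ2 siRNA and 22.4% with EV, 17 and 18 of 18 genes of G2 and M phase were lower. Their mean log2 value was 9.69 to 9.71 with ERβ2 siRNA and 9.67 to 9.71 with EV, against 10.13 to 10.17 with control siRNA. The part of either list in the levels of the members was not tested.

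The partners of VHL in its ubiquitin ligase did not pass by limma with ERβ2 siRNA. These are the elongins ELOB and ELOC, the scaffold CUL2, the RING protein RBX1 and the cullin modifier NEDD8. By limma 0 of 5 measured genes passed, where 35.8% of all genes did, and 0 had an unadjusted p under 0.05. The arrays of both groups did not overlap for 3 of the 5, beside 42.4% of all genes. With an intensity trend and by the t-test with q-values 1 passed higher and 1 lower. Lower were 2 after median centring and 1 after quantile normalization, and 1 was higher without dim genes and in 1 fit for all 4 groups. Their log2 changes ran from −0.11 for ELOB and NEDD8 to 0.13 for CUL2. The median was −0.08, beside −0.03 over all genes. Of 9 measured regulators of HIF or hydroxylase turnover 4 rose and 0 fell, where 18.3% of all genes rose and 17.5% fell, with a median of 0.16. AJUBA, a LIM scaffold protein that can bind EGLN enzymes and VHL, had log2 values of 7.86, 7.82 and 7.91 with ERβ2 siRNA, against 7.41, 7.36 and 7.47 with control siRNA (log2 change 0.45, SE 0.06, limma adjusted p = 0.000707). STUB1, a chaperone-linked ubiquitin ligase, rose by 0.31 and FKBP8, an anchor of EGLN1, by 0.29. AJUBA was 7.55, 7.64 and 7.60 with the ERβ2 plasmid, against 7.66, 7.71 and 7.68 with EV, without passing. Between EV and control siRNA AJUBA passed as higher with EV (log2 change 0.27, limma adjusted p = 0.00952).

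Of 7 coactivators and competitors of HIF 3 rose and 1 fell with ERβ2 siRNA, where 18.3% of all genes rose and 17.5% fell. CITED4, which competes with HIF-α for its coactivators, had log2 values of 8.84, 8.66 and 8.67 with ERβ2 siRNA, against 7.93, 7.89 and 7.84 with control siRNA. That log2 change of 0.84 (SE 0.07, limma adjusted p = 6.41e-05) was larger than that of any member. EP300, the coactivator p300, rose by 0.35, and ING4, which represses HIF activity through EGLN1 in some cells, fell by 0.30. EP300 had means of 8.36 with ERβ2 siRNA, 8.56 with the ERβ2 plasmid, 8.53 with EV and 8.01 with control siRNA, so control siRNA was the lowest group. Of 10 other factors of the bHLH-PAS family, to which HIF subunits belong, 2 rose and 0 fell, where 18.3% of all genes rose. With 1 array left out (control siRNA replicate 2 or 3, or replicate 1 or 3 of ERβ2 siRNA) 1 rose, and 1 fell without ERβ2 siRNA replicate 3. The 2 were the circadian partners CLOCK, by 0.57 (SE 0.07, limma adjusted p = 0.000421), and BMAL1, by 0.28 (adjusted p = 0.08). For BMAL1 the arrays of both groups overlapped. CLOCK and BMAL1 also passed as higher with EV than with control siRNA, by 0.30 and 0.43.

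Other enzymes that use oxygen, nearly all of them with 2-oxoglutarate as cosubstrate like the EGLN enzymes, numbered 18 measured, of which 4 rose and 3 fell with ERβ2 siRNA. These shares are near the 18.3% and 17.5% over all genes, and 1 gene fell without ERβ2 siRNA replicate 2 and 2 rose after median centring. TET1, a DNA demethylase, rose by 0.55 (SE 0.09), KDM4C, a histone demethylase, by 0.42 (SE 0.06) and RIOX2, a ribosomal oxygenase, by 0.25 (SE 0.05). Of 9 enzymes that make or use 2-oxoglutarate, succinate or fumarate 1 rose and 2 fell, again near the shares over all genes. SDHD, a subunit of succinate dehydrogenase, fell by 0.46 (SE 0.07, limma adjusted p = 0.00194), GOT1, an aspartate aminotransferase, fell by 0.36 and IDH1, which makes 2-oxoglutarate, rose by 0.23. No gene of these lists passed with the ERβ2 plasmid, where 0.0111% of all genes did.

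**Figure D3:**
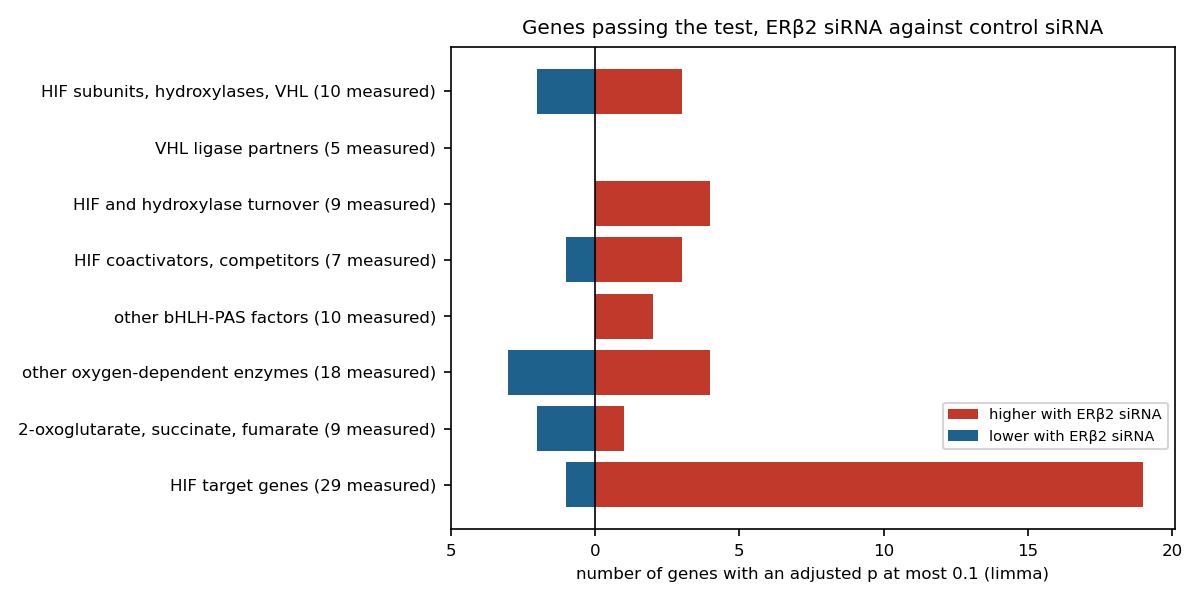
Number of genes that passed the limma test (adjusted p at most 0.1, horizontal axis, bars starting at 0) higher (right, red) or lower (left, blue) with ERβ2 siRNA than with control siRNA, for the 10 members and 7 lists of genes around them (rows, with the number measured). HIF target genes show 19 higher and 1 lower of 29, and VHL ligase partners 0 of 5, where 18.3% of all genes were higher and 17.5% lower. The lists were chosen with earlier results of these data known, so the counts are a description.

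Of 29 measured target genes of HIF 19 rose and 1 fell with ERβ2 siRNA, where 18.3% of all genes rose and 17.5% fell. This list too was chosen with earlier results of these data known, so its count is a description and no test. The paper reported less HIF-1α protein after ERβ2 siRNA in BT549, and a relation of that protein to the targets was not tested. The targets had a median log2 change of 0.38, beside −0.03 over all genes. Their mean log2 value per array was 9.77 to 9.82 with ERβ2 siRNA, against 9.37 to 9.40 with control siRNA. PFKFB4, a regulator of glycolysis, had log2 values of 7.95, 7.83 and 7.94 with ERβ2 siRNA, against 6.54, 6.46 and 6.53 with control siRNA. That log2 change of 1.40 (SE 0.06, limma adjusted p = 5.16e-06) exceeded those of all members. LOX, which crosslinks collagen, had 11.58, 11.51 and 11.67 with ERβ2 siRNA, against 10.21, 10.39 and 10.22 with control siRNA, a log2 change of 1.31. INSIG2, a brake on sterol synthesis, had 7.21, 7.10 and 7.20 with ERβ2 siRNA, against 6.25, 6.27 and 6.25 with control siRNA, a log2 change of 0.91.

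The target that fell, SLC2A1, is the glucose transporter GLUT1 and is named here after its value was seen. Its log2 change was −0.60 (SE 0.06, limma adjusted p = 0.000187). Also named after their values were seen, the glycolytic enzymes PGK1, LDHA, ENO1 and ALDOA had log2 changes of 0.09, 0.11, 0.06 and 0.01. The angiogenic factor VEGFA had −0.06, and none of these genes passed. Other genes of glucose metabolism in the list did pass as higher by limma. They were HK2 (0.60), PDK1 (0.38), SLC2A3 (0.27) and PFKFB3 (0.24), beside PFKFB4. KDM3A and KDM4B stand in this list and among the oxygen-dependent enzymes, and neither passed.

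With the ERβ2 plasmid 0 of the 29 targets passed against EV by limma, where 0.0111% of all genes did, and 0 passed by the t-test. An unadjusted p under 0.05 from limma was reached by 2 targets, beside 7.02% of all genes. The targets had a median log2 change of 0.00 and mean log2 values per array of 9.49 to 9.50, against 9.46 to 9.53 with EV. Between EV and control siRNA 10 targets were higher and 8 lower, where 19.2% of all genes were higher and 22.4% lower. The median was 0.00, and 5 targets were lower without control siRNA replicate 3 or without EV replicate 1. LOX was among those higher (0.66) and PFKFB4 among those lower (−0.20, limma adjusted p = 0.0948). In the difference between both effects 17 targets were higher and 2 lower, where 15% of all genes were higher and 11.3% lower. Of the list CA9, ANKRD37 and MIR210HG were among the genes not analysed here.

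**Figure D4:**
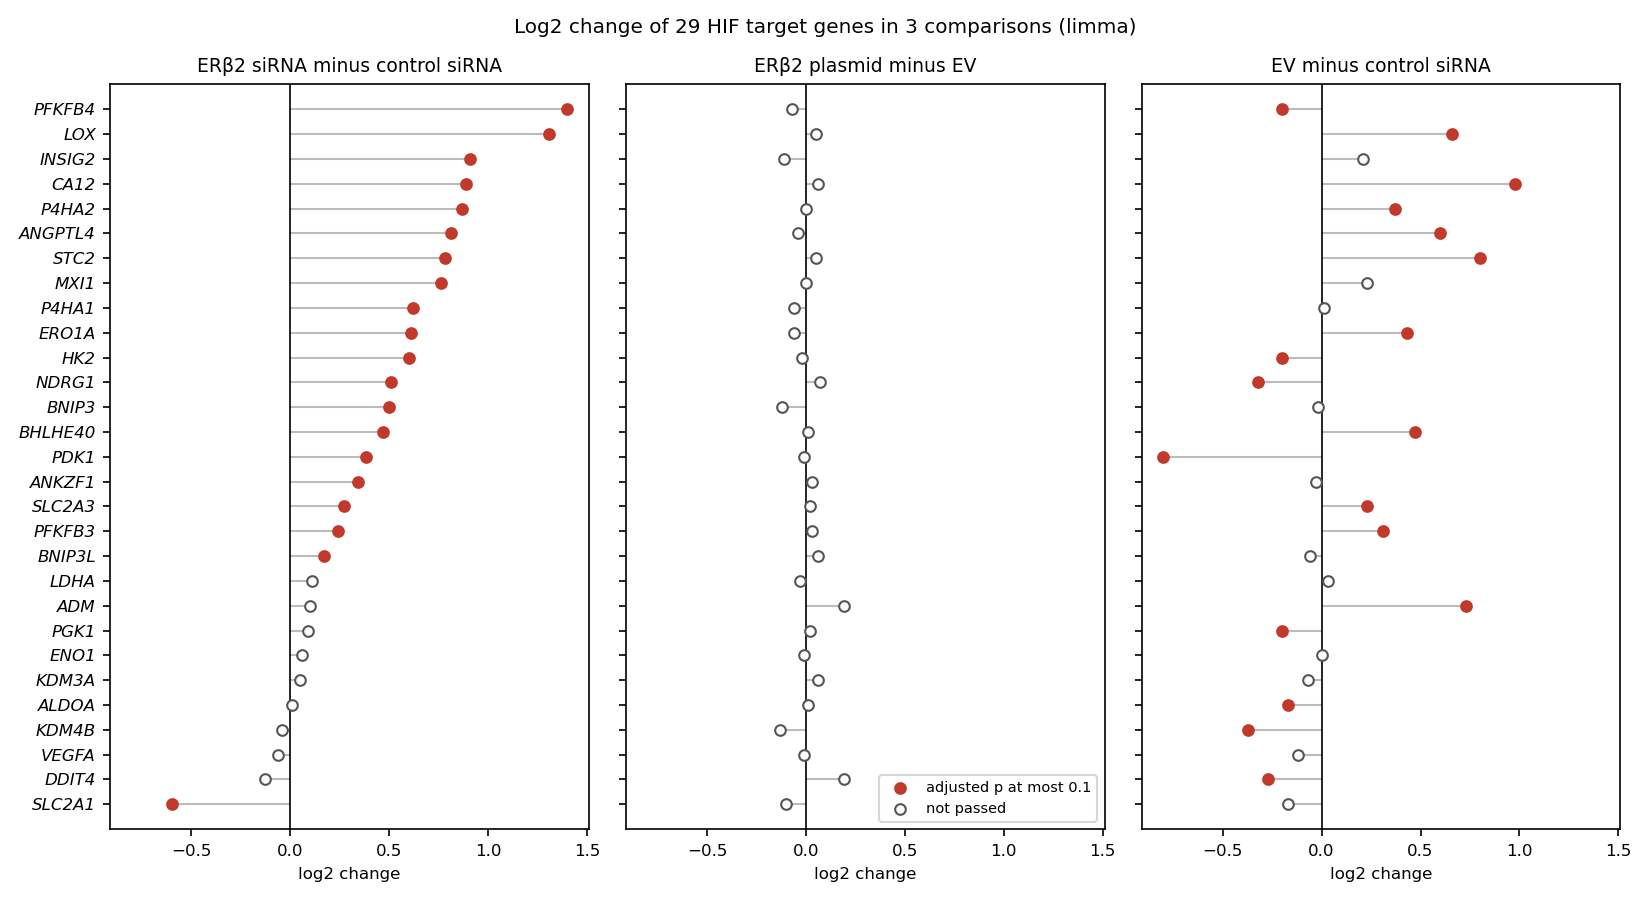
Log2 change (horizontal axis) of 29 HIF target genes (rows, sorted by the change with ERβ2 siRNA) in 3 comparisons, with filled red points where limma gave an adjusted p no higher than 0.1. With ERβ2 siRNA 19 lie to the right as red points and SLC2A1 to the left, with the ERβ2 plasmid none is red, and between EV and control siRNA the red points fall on both sides, 10 right and 8 left.

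For 3 members the genes with the most similar pattern over the 12 arrays were taken, by Pearson correlation, as a description. The 12 arrays form 4 groups, so these values mainly follow the 4 group means. EGLN3 was closest to RHBDF2 (0.974), SYNJ2 (0.963) and STK35 (0.963). RHBDF2 had a log2 change of 0.82 with ERβ2 siRNA and of 0.61 between EV and control siRNA. EPAS1 was closest to ADAM12 (0.992), TMEM263 (0.984) and CALD1 (0.981), which had log2 changes of 0.60, 0.53 and 0.80 with ERβ2 siRNA and of 0.12, 0.03 and 0.16 between EV and control siRNA. HIF1A was closest to TM4SF1 (0.963), ADAM9 (0.954) and HSP90B1 (0.953), and none of these passed with ERβ2 siRNA. No gene was shared between these 3 short lists.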

How the data were processed

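The authors extracted total RNA, measured it on Affymetrix Human Gene 1.1 ST arrays and applied RMA (background correction, normalization between arrays, summary of probes) in the Affymetrix Expression Console, in a version that no source used here gives. Values were deposited on a log2 scale, rounded to 2 decimals (the base is unstated and follows from RMA). Arrays have no read depth, and 3 arrays per group limit the precision. RMA compresses changes at low signals, which bears on HIF3A and ARNT2 (mean log2 value under 5).

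Of 33297 clusters, 19181 had 1 symbol in the platform annotation, 2055 several and 12061 none, and the cluster with the highest mean was kept for each of 17958 genes. No filter on low values was set. Groups were compared pairwise with limma 3.58.1 in R 4.3.3 (lmFit, eBayes), without a replicate block, and the difference of effects in 1 fit over 12 arrays. P-values were adjusted over all genes. The t-test and q-values of the study's methods were run as an alternative. The procedure was tested on simulated data.

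Members and lists were chosen with earlier results of these data known. Named genes were the members, ESR2, up to 3 genes per list with the largest change among those passing with ERβ2 siRNA, and the 3 genes most like EGLN3, EPAS1 and HIF1A. Alternatives were other rows, a filter at a mean log2 value of 5, quantile, cyclic loess and median scaling, the t-test, a trend with robust prior, a threshold of 0.05, 1 fit for 4 groups, a replicate block and each array left out. The build behind the array annotation was not known, and RefSeq tables gave names and promoters.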

Additional observations from a re-analysis of the deposited data

Results flagged for a closer look

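For 3 members the effect of ERβ2 siRNA differed from the effect of the ERβ2 plasmid by a test of that difference (limma over 12 arrays). The difference was 0.80 on the log2 scale for EGLN3, from a change of 0.72 with ERβ2 siRNA and −0.08 with the plasmid. It was 0.55 for EPAS1, from 0.63 and 0.07. It was 0.20 for EGLN1, from 0.28 and 0.08. The EGLN1 difference (adjusted p = 0.076) did not hold in 14 other settings. The time after transfection (48 h for siRNA, 24 h for plasmid), the reagent and the nucleic acid also differ and cannot be told apart from the target. Groups of 3 arrays are too small to check for single arrays that stand apart.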

How the results depend on the processing

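With ERβ2 siRNA EGLN3, EPAS1 and EGLN1 passed under every alternative run, and no member changed sign. The number of members higher was 5 instead of 3 without dim genes, by the methods' t-test with q-values and in 1 fit for all 4 groups, and the number lower was 1 instead of 2 without dim genes, after quantile normalization, in 1 fit for all 4 groups and with an intensity trend and robust prior. With single arrays left out, 0 to 2 members were lower, the count being 0 if replicate 3 of either arm was dropped and 1 if ERβ2 siRNA replicate 1 was. Median centring left 1 member called at 1.5-fold instead of 2. It moved the median of all genes to −0.12 with ERβ2 siRNA, −0.21 between EV and control siRNA and −0.14 for the difference of effects, by its own construction, and 6157 genes were then lower with ERβ2 siRNA. HIF targets that fell with ERβ2 siRNA numbered 2 instead of 1 without dim genes, after quantile normalization, cyclic loess or median centring, by the t-test in both forms, in 1 fit for all 4 groups and with the intensity trend. With the ERβ2 plasmid 1 gene was higher instead of 2 after quantile normalization, cyclic loess or median centring, and in 1 fit for all 4 groups, which also had 1 lower. It was 0 by the t-test in both forms, at an adjusted p under 0.05 and with the replicate block, and 35 higher and 9 lower with the intensity trend. It was 4 higher and 2 lower without EV replicate 2, and 0 of each without any other array.

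Between EV and control siRNA, 2 members were lower instead of 1 after quantile normalization, cyclic loess, by q-values and in 1 fit for all 4 groups, and 6 were lower after median centring. Members higher numbered 2 by cyclic loess and by the t-test in both forms. Median centring gave 2211 genes higher and 10301 lower, q-values 6455 lower. HIF targets lower numbered 15 after median centring, and 5 at an adjusted p under 0.05 and with the replicate block, and 5 to 8 with single arrays left out (5 without control siRNA replicate 3 or EV replicate 1). Leaving out single arrays, 0 to 1 members were called at 1.5-fold (EGLN3 without control siRNA replicate 3). Median centring turned the sign of VHL (−0.14), EPAS1 (−0.07) and HIF3A (−0.13), which did not pass either way. For the difference of effects, 1 member was lower instead of 0 without dim genes and after quantile normalization or cyclic loess, 2 after median centring, which had 4834 genes lower, and 0 to 1 with single arrays left out (HIF1AN without control siRNA replicate 1 or ERβ2 plasmid replicate 2). EGLN2 turned to −0.09 after quantile normalization and median centring. The cause of these shifts was not tested.

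Same-numbered arrays correlated in their deviations at 0.22, 0.14 and 0.01 in the siRNA comparison and at −0.14, −0.09 and 0.10 in the plasmid comparison. Differently numbered arrays correlated at −0.19 to 0.06 and at −0.13 to 0.19. The main fits did not pair arrays by number, and in the siRNA comparison these values do not settle whether the numbers pair them. With the replicate block HIF1A passed with ERβ2 siRNA (adjusted p = 0.0822) and the EGLN1 difference of effects did not (0.103). Of 272 recomputed list counts 235 stayed within 1.5 times.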
